A study of Mus musculus with 12 samples.

Results

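The ADAM and ADAMTS proteases were followed as 10 genes fixed by name, namely Adam8, Adam9, Adam10, Adam12, Adam17, Adam19, Adamts1, Adamts4, Adamts5 and Adamts9, in spinal cords of mice 4 days after surgery. Of these 10 genes, 8 had probesets that name a single gene in the array annotation used. Adam17 and Adamts9 had no such probeset and were not analysed here. A probeset is a group of oligonucleotide probes that usually reads 1 exon, and the log2 values of all probesets of a gene were averaged to give its level. The 8 genes were read by 154 probesets, out of 15830 genes and 179614 probesets that name 1 gene.

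The mice were EphA4 knockout animals, which carry a germline deletion of this receptor, and their wild-type littermates, all bred on C57/BL6. They received either a hemisection of the left side of the lumbar cord (injured) or a laminectomy alone (sham), so that anaesthesia and opening of the vertebral column were shared by all 4 groups. Each group held 3 mice of separate arrays, labelled as 2 males and 1 female, and the labelled ages ran from 9 to 14.5 weeks. Tissue was 6 mm of the left cord around the lesion, or the equivalent region in sham mice. The paper calls this side injured, whereas the sample labels call it uninjured. EphA4 is a receptor of axon guidance, and the design asks how the cord responds to injury with and without it.

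Epha4 itself was 1.50 lower on the log2 scale in sham knockout than in sham wild-type cords and 1.15 lower in injured ones. Markers of neurons averaged between 9.37 and 9.96 and those of myelin between 9.96 and 10.42 on every array. T cell markers averaged 3.50 to 3.79. Markers of skeletal muscle averaged 6.22 on injured wild-type replicate 1 and between 4.57 and 5.09 on all other arrays. A pair of knockout arrays stood apart as well. Replicate 2 of the sham knockouts is labelled male, but the Y-linked gene Eif2s3y was at 3.25, inside the 3.21 to 3.49 of the arrays labelled female and far from the 7.21 to 8.15 of the other arrays labelled male. Replicate 2 of the injured knockouts had an interquartile range of probeset values of 3.29, against 3.46 to 3.60 in the other injured arrays. All 3 arrays were kept, and values without them are given where they change a result.

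ADAM proteins are membrane proteins with a metalloproteinase and a disintegrin domain. Several of them, such as ADAM10 and ADAM17, shed the outer part of cytokines, growth factors, adhesion molecules and receptors from the cell surface, and ADAM10 also cuts Notch and ephrins. ADAMTS proteins are secreted, bind extracellular matrix through thrombospondin repeats and, in the case of ADAMTS1, ADAMTS4, ADAMTS5 and ADAMTS9, cleave aggrecan and related chondroitin sulphate proteoglycans. These proteoglycans accumulate around cord lesions and inhibit axon growth, which is why proteases that cut them are of interest in the injured cord.

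Most of these genes rose with injury, and none passed the threshold for a genotype difference. Of the 8 measured genes, 6 rose with injury when both genotypes were averaged and none fell. They were Adam8, Adam9, Adam10, Adam12, Adamts1 and Adamts5. A call needed a limma adjusted p under 0.05 (Benjamini-Hochberg over 15830 genes) and at least a 1.2-fold change, and by this rule 29.8% of all genes were called, 12.8% as higher and 17% as lower. The median change of the 8 genes was 0.52 on the log2 scale, against -0.08 over all genes. The members were chosen with earlier results of these data known, so this contrast is no test of the set. Adam19 and Adamts4 were not called, with mean changes of -0.01 each. The arrays cannot tell more transcript per cell from more cells of a type that carries it.

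**Figure D1:**
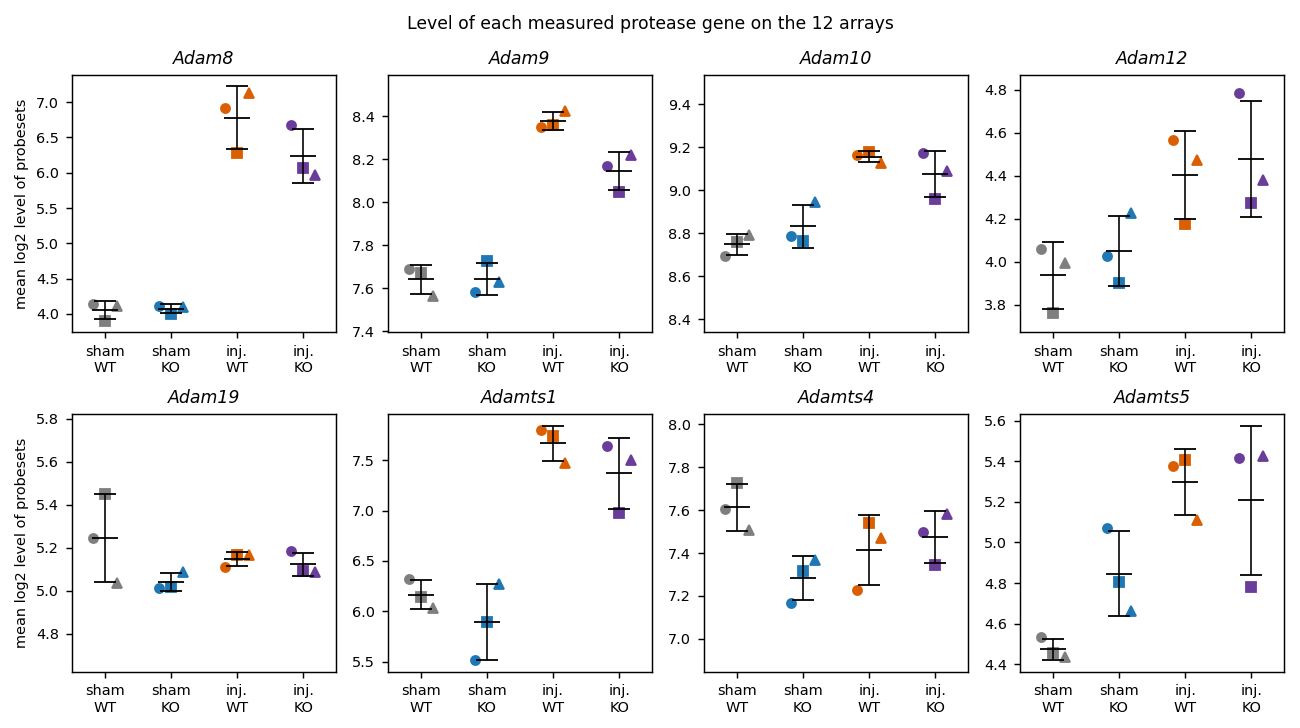
Log2 level (mean of the gene's probesets, vertical axis, scaled for each gene) of the 8 measured genes on the 12 arrays. WT is wild-type, KO is EphA4 knockout and inj. is injured; circles, squares and triangles are replicates 1, 2 and 3, and the bars are mean ± SD (n = 3). For Adam8, Adam9, Adam10 and Adamts1 all 6 injured arrays lie above all 6 sham arrays, while Adam19 and Adamts4 show no such step.

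Adam8 changed most. This ADAM is an active protease best known from macrophages, microglia and granulocytes. Its log2 level was 4.15, 3.91 and 4.12 in the sham wild-type arrays and 4.11, 4.00 and 4.11 in the sham knockouts. After injury it was 6.92, 6.28 and 7.13 in wild-type cords and 6.67, 6.07 and 5.96 in knockout cords. Every injured array stood far above every sham array, and the sham arrays of both genotypes were interleaved. The mean change was 2.44 ± 0.15 (SE, n = 6 injured and 6 sham), a 5.43-fold rise with a limma adjusted p of 5.32e-08. It ranked 80 of 15830 genes by size of change. The rise was 2.72 ± 0.21 in wild-type and 2.16 ± 0.21 in knockout cords, and within extraction batches 1 and 2, which held all 4 groups, the mean rise was 2.31 and 2.74. Batches 3 and 4 held 1 knockout array each and give no such value.

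Macrophage markers moved with Adam8. All 12 genes of the microglia and macrophage list rose, by a median of 2.52, with Cd68 higher by 3.93 and Itgb2, an integrin chain of leukocytes, by 2.81. Across all genes 12.8% were called higher and 17% lower, and the median change was -0.08. The summed level of the list, as its mean over genes, was 5.62 to 5.84 on the sham arrays, 8.46 to 8.80 in injured wild-type and 8.10 to 8.51 in injured knockout cords. The 6 injured arrays fell in the same order by Adam8 and by this list, from wild-type replicate 3 at the top to knockout replicate 3 at the bottom. None of the 7 measured neutrophil markers passed the test, and their mean level overlapped between sham arrays (4.85 to 6.72) and injured arrays (4.86 to 6.17). The part of macrophage number in the Adam8 difference was not tested. The genes whose centred profiles over the 12 arrays lay closest to that of Adam8 were Slc11a1, Clec5a and Cd53. They encode a metal transporter of phagosomes, a lectin receptor of myeloid cells and a leukocyte tetraspanin. Their root mean square distances from Adam8 were 0.15, 0.19 and 0.19 on the log2 scale. Such distances include the injury step, and these genes changed by 2.42, 2.35 and 2.55 with injury, near the 2.44 of Adam8.

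**Figure D2:**
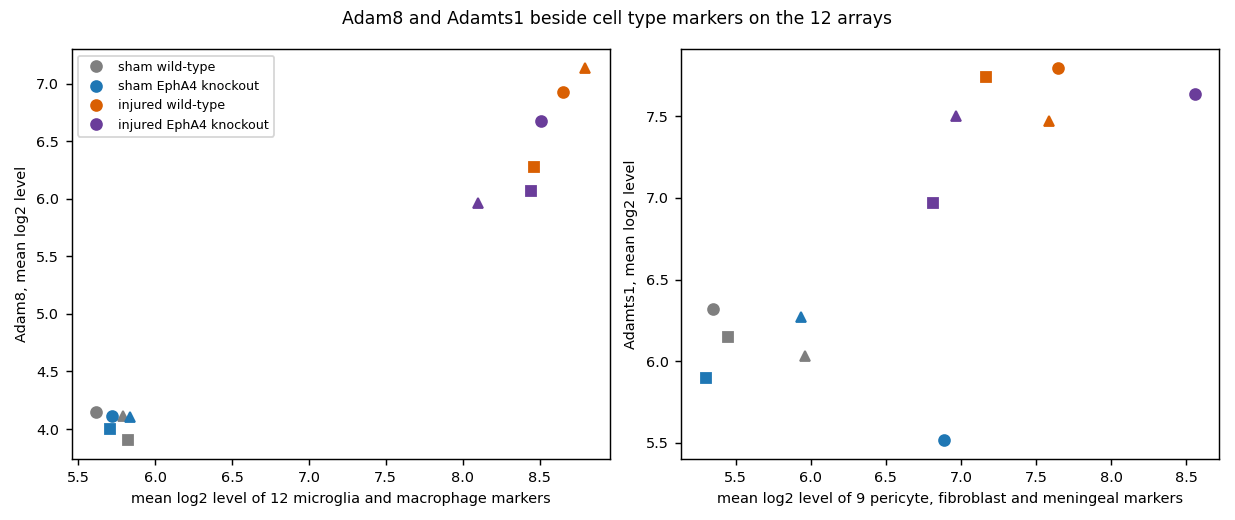
Log2 level of Adam8 against the mean log2 level of 12 microglia and macrophage markers (left), and of Adamts1 against that of 9 pericyte, fibroblast and meningeal markers (right), 1 point per array. Colours are the groups and circles, squares and triangles are replicates 1, 2 and 3. In the left panel sham and injured arrays form separate groups, with markers at 5.62 to 5.84 and at 8.10 to 8.80, and in the right panel sham knockout replicate 1 has markers at 6.89 with Adamts1 at 5.52.

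Adamts1 was the other gene that rose more than 2-fold. It encodes a secreted protease that cleaves aggrecan and versican and is induced by inflammation. Its level was 6.32, 6.15 and 6.03 in sham wild-type and 5.52, 5.89 and 6.27 in sham knockout arrays. After injury it was 7.80, 7.74 and 7.47 in wild-type and 7.64, 6.97 and 7.50 in knockout cords. Injured and sham arrays did not overlap, and the lowest injured array was the knockout replicate with the narrow spread of values. The mean change was 1.49 ± 0.14 (SE), a 2.81-fold rise with a limma adjusted p of 3.21e-06, and it was nearly equal in wild-type (1.50) and knockout cords (1.48). Within batches 1 and 2 the mean change was 1.18 and 1.54. Wild-type and knockout cords changed by 1.28 and 1.08 in batch 1 and by 1.71 and 1.37 in batch 2. Among all 15830 genes, 560 were called with a change of at least 2-fold, and Adamts1 ranked 285 by size.

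The profiles closest to that of Adamts1 were those of Myc, a transcription factor of cell growth, the expressed sequence D2Ertd750e and Ccnd1, which encodes cyclin D1. Their distances were 0.18, 0.21 and 0.21. With injury these genes changed by 1.51, 1.47 and 1.67, beside 1.49 for Adamts1. The list of pericyte, fibroblast and meningeal markers had 6 of 9 genes higher with injury and none lower. Its mean level was 5.30 to 6.89 on the sham arrays and 6.81 to 8.56 on the injured arrays, so that the ranges met. The highest sham value belonged to knockout replicate 1, whose Adamts1 level was the lowest of all 12 arrays. Of the 8 endothelial markers 4 were called higher, 6 had changes above 0, and the median change of the list was 0.40. Cdh5, the adhesion protein of endothelial junctions, was among the 4 and rose by 1.36. Astrocyte markers rose for 5 of 8 and fell for 1, and Schwann cell markers rose for 2 of 3. Of all genes, 12.8% were called higher and 17% lower. The microglia and macrophage list, with all 12 genes higher, also kept injured and sham arrays apart, as Adamts1 did. Its mean level was 5.62 to 5.84 on the sham arrays and 8.10 to 8.80 on the injured arrays. The part of any of these cell types in the Adamts1 difference was not tested.

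The promoter table of RefSeq (GRCm38.p6) held 300 bases, 250 before to 50 after an annotated start, for 4 of the 8 measured genes. The stretches of Adam8 and Adamts1 are shown because these genes rose most, and 1 of 3 Adam19 starts because it alone held a match, given in capitals, to the motifs searched.
Adam8, chr7:139992513-139992812, minus strand: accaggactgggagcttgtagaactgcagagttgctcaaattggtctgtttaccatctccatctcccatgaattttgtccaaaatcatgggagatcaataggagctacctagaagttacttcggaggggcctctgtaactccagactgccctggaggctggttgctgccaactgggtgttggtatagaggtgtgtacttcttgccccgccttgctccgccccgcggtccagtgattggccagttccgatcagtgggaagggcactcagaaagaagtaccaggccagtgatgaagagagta
Adamts1, chr16:85803064-85803363, minus strand: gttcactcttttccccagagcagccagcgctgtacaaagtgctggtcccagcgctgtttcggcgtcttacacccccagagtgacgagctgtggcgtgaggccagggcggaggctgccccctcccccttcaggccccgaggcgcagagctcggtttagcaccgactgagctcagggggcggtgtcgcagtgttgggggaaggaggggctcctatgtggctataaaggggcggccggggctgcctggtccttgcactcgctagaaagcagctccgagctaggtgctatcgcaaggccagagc
Adam19, chr11:46055734-46056033, plus strand: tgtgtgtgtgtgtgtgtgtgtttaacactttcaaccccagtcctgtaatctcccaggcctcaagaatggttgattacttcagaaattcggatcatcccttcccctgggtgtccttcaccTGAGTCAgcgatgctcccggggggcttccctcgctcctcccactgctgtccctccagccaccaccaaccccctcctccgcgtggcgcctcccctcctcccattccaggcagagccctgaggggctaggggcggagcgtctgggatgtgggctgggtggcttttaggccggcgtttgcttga
The motifs, searched on both strands, were TGANTCA for AP-1, the NF-kB consensus and GAGGAAGT for PU.1, which do not overlap in the stretch shown. They occurred in 7.81%, 0.411% and 3.2% of the 32851 promoters in the table. Neither the Adam8 and Adamts1 stretches nor that of Adam10 held any of these letters. The AP-1 letters in the Adam19 stretch began 131 bases before the start, in a gene whose level did not pass the injury test. Adamts1 and Adamts5 are neighbours on chromosome 16, with no other protein-coding gene starting between them.

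Adam9 and Adam10 rose by less, with little spread between arrays. Adam9 encodes a widely expressed sheddase. Its level was 7.69, 7.67 and 7.56 in sham wild-type, 7.58, 7.73 and 7.63 in sham knockout, 8.35, 8.36 and 8.43 in injured wild-type and 8.17, 8.05 and 8.22 in injured knockout arrays. All injured arrays were above all sham arrays, and the 3 injured knockouts were below the 3 injured wild-types. The mean change was 0.62 ± 0.06 (SE, 1.54-fold, limma adjusted p = 7.87e-06), and within batches 1 and 2 it was 0.51 and 0.64.

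Adam10 encodes the main constitutive sheddase of Notch, N-cadherin and the amyloid precursor protein. Its level was 8.69, 8.76 and 8.79 in sham wild-type, 8.78, 8.76 and 8.95 in sham knockout, 9.16, 9.18 and 9.13 in injured wild-type and 9.17, 8.96 and 9.09 in injured knockout arrays. Injured and sham arrays did not overlap, with the closest pair both knockouts at 8.95 and 8.96. The mean change was 0.33 ± 0.07 (SE, 1.25-fold, limma adjusted p = 0.00176). Together with Adam8 and Adamts1, 4 of the 8 genes had all 6 injured arrays above all 6 sham arrays, as did 8.86% of all genes.

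Adamts5, which encodes an aggrecan-cleaving protease of cartilage and cord matrix, rose by 0.59 ± 0.12 (SE, 1.51-fold, limma adjusted p = 0.00153). Its level was 4.53, 4.45 and 4.43 in sham wild-type, 5.07, 4.81 and 4.66 in sham knockout, 5.37, 5.41 and 5.11 in injured wild-type and 5.41, 4.78 and 5.43 in injured knockout arrays. Injured and sham arrays were apart in wild-type cords and overlapped in knockout cords, where injured replicate 2 lay inside the sham range. With the median in place of the mean of its 9 probesets the change was 0.27 and the limma adjusted p 0.33. Within batches 1 and 2 the mean change was 0.35 and 0.84.

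Adam12, which is expressed in muscle precursors, mesenchymal cells and growing tissues, rose by 0.45 ± 0.11 (SE, 1.36-fold, limma adjusted p = 0.00554). Its level was 4.06, 3.76 and 3.99 in sham wild-type, 4.03, 3.90 and 4.23 in sham knockout, 4.57, 4.18 and 4.47 in injured wild-type and 4.78, 4.27 and 4.38 in injured knockout arrays. Within each genotype the injured arrays lay above the sham arrays, but injured wild-type replicate 2, at 4.18, was below sham knockout replicate 3, at 4.23. Of its 20 probesets 16 had a mean level under 5, and without these the change was 0.13 with a limma adjusted p of 0.635. All 5 of its probesets called higher with injury were among the 16 left out. Injured wild-type replicate 1, the array with high muscle markers, had the highest Adam12 level of the wild-type arrays, and without it the wild-type change was 0.39 with a limma adjusted p of 0.141. The highest level of all arrays was on injured knockout replicate 1, where the muscle markers were lowest, at 4.57. This array also had the highest means of the pericyte, fibroblast and meningeal markers, at 8.56, and of the Schwann cell markers, at 6.98. The part of muscle RNA or of these cell types in the Adam12 difference was not tested.

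Adam19 and Adamts4 did not pass the test. Adam19, an ADAM of heart development and of neuregulin shedding, was at 5.24, 5.45 and 5.04 in sham wild-type, 5.01, 5.02 and 5.09 in sham knockout, 5.11, 5.17 and 5.16 in injured wild-type and 5.19, 5.09 and 5.09 in injured knockout arrays. Sham wild-type cords spanned both the lowest and the highest of the injured values. In knockout cords all 3 injured arrays lay above all 3 sham arrays, with the nearest of them both at 5.09. Adamts4, an aggrecanase like ADAMTS5, was at 7.61, 7.73 and 7.51 in sham wild-type, 7.17, 7.32 and 7.37 in sham knockout, 7.23, 7.54 and 7.47 in injured wild-type and 7.50, 7.34 and 7.58 in injured knockout arrays. Injured and sham arrays overlapped in both genotypes. The 95% confidence interval of the mean change was -0.17 to 0.15 for Adam19 and -0.18 to 0.17 for Adamts4.

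By genotype, the same 6 genes rose in wild-type cords, where 24.1% of all genes were called and 11.2% as higher. In knockout cords 3 rose, Adam8, Adam9 and Adamts1, where 20.5% were called and 8.98% as higher. With the median of probesets 4 were called in wild-type cords, without Adam10 (0.42, limma adjusted p = 0.0545) and Adamts5 (0.60, limma adjusted p = 0.145). Injured arrays lay above sham arrays without overlap for these 6 genes in wild-type cords, as for 16.6% of all genes. In knockout cords they did so for 6 genes too, as for 12.7% of all genes, but with Adam19 among them and without Adamts5. Adam10, Adam12 and Adamts5 had changes of 0.24, 0.43 and 0.36 in knockout cords with limma adjusted p of 0.0866, 0.0655 and 0.155. Without injured knockout replicate 2, the array of narrow spread, all 6 were called in knockout cords. Without this array and sham knockout replicate 2, an alternative chosen after seeing the data, 4 were called, the fourth being Adamts5. In wild-type cords the Adam12 call, at a limma adjusted p of 0.0404, was lost when any 1 of 6 arrays was left out, when probesets under 5 were left out and when arrays were centred on the median.

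**Figure D3:**
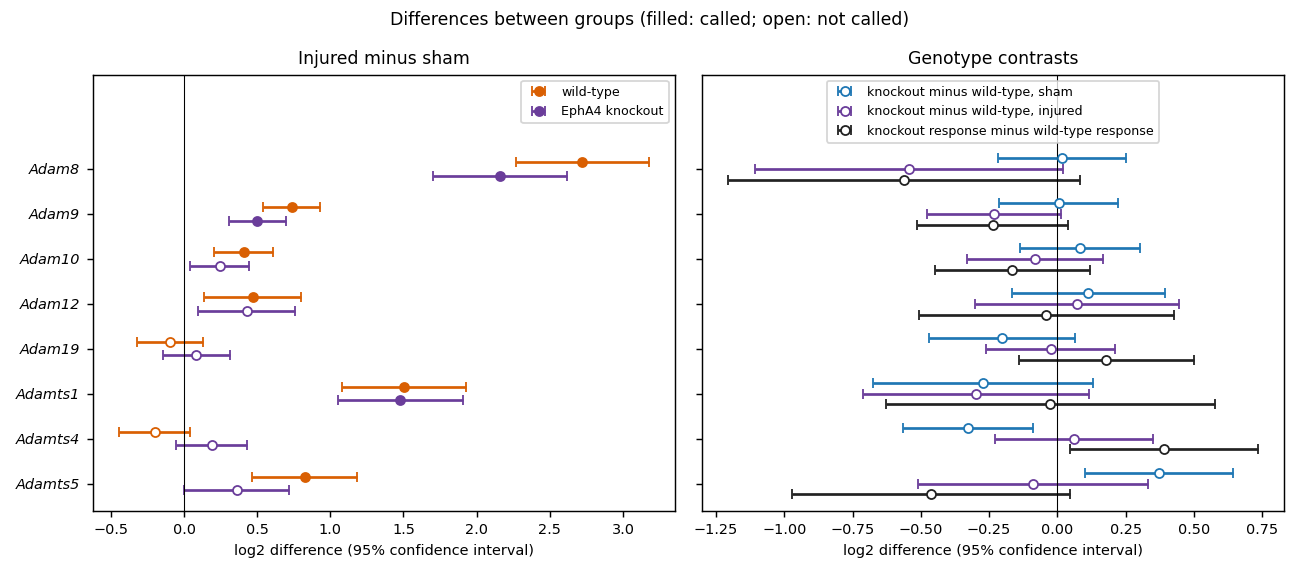
Log2 differences with 95% confidence intervals from limma for the 8 measured genes. The left panel gives injured minus sham in each genotype, and the right panel gives knockout minus wild-type in sham and in injured cords and the difference of the injury responses. Filled points were called, and on the right none was; the widest distance between the responses was that of Adam8 at -0.56.

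The difference between the injury responses was tested directly, since a call in 1 genotype alone does not show it. None of the 8 genes passed an unadjusted p under 0.01 with a 1.2-fold change, the rule of the study's methods, which called 1.05% of all genes. At an unadjusted p under 0.05, which 5.57% of all genes met, the single gene was Adamts4. Its change was -0.20 in wild-type and 0.19 in knockout cords, a difference of 0.39 ± 0.16 (SE, 95% confidence interval 0.05 to 0.73, limma adjusted p = 0.873). Within batches 1 and 2 this difference was 0.13 and 0.52. The Adam8 response was 0.56 smaller in knockout cords (95% confidence interval -1.21 to 0.08, limma adjusted p = 0.873). For Adamts5 the difference was -0.46 (-0.97 to 0.05, limma adjusted p = 0.873), and -0.25 without injured knockout replicate 2. In both genes the genotypes were further apart in sham than in injured cords. Knockout minus wild-type was -0.33 in sham and 0.06 in injured cords for Adamts4. For Adamts5 these values were 0.37 and -0.09. For Adamts1 it was -0.03 (-0.63 to 0.58), and -0.21 and -0.34 within batches 1 and 2.

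In sham cords none of the 8 genes was called different between genotypes, where the same rule called 1.35% of all genes. Adamts4 was 0.33 ± 0.10 (SE) lower in knockout cords, with all 3 knockout arrays below all 3 wild-type arrays (limma adjusted p = 0.737). Adamts5 was 0.37 ± 0.12 higher, with all 3 knockout arrays above (limma adjusted p = 0.737). Such separation in the lower direction was found for 6.34% of all genes and in the higher direction for 5.43%, and both genes met an unadjusted p under 0.05, as did 6.3%. Without sham knockout replicate 2 the differences were -0.34 and 0.39. Adamts4 lies on chromosome 1, as Epha4 does, and whether linkage to that locus bears on its level was not tested. Some alternative settings moved 1 or the other of this pair just past p of 0.01, and none gave a limma adjusted p under 0.05.

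In injured cords none of the 8 genes was called, where the rule called 0.796% of all genes, and none met an unadjusted p under 0.05, which 4.04% of all genes did. Adam8 was 0.54 ± 0.25 (SE) lower in knockout than in wild-type cords (95% confidence interval -1.11 to 0.02, limma adjusted p = 0.998). Knockout replicate 1, at 6.67, lay above wild-type replicate 2, at 6.28, so the groups overlapped. The 12 macrophage markers had a median difference of -0.30 in the same comparison, and none of them was called. Without wild-type replicate 2 the Adam8 difference was -0.80 and met the rule, with a limma adjusted p of 1. Adam9 was 0.23 ± 0.11 lower in knockout cords without overlap of the arrays, as were 5.51% of all genes (limma adjusted p = 0.998).

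The single probesets show how evenly each gene moved. Of the 154 probesets 64 were called higher with injury and none lower, or 41.6% of them, against 13.5% of all probesets called and 7.42% called higher. Since the members were chosen with earlier results of these data known, this contrast is no test of the set either. For Adam8, 18 of 22 were called higher, for Adamts1 16 of 17, for Adam9 17 of 24, for Adam12 5 of 20, for Adam10 4 of 19 and for Adamts5 4 of 9. None of the 28 probesets of Adam19 or the 15 of Adamts4 was called. All 19 probesets of Adam10 and all 24 of Adam9 had changes above 0, from 0.01 to 0.58 and from 0.08 to 1.09.

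**Figure D4:**
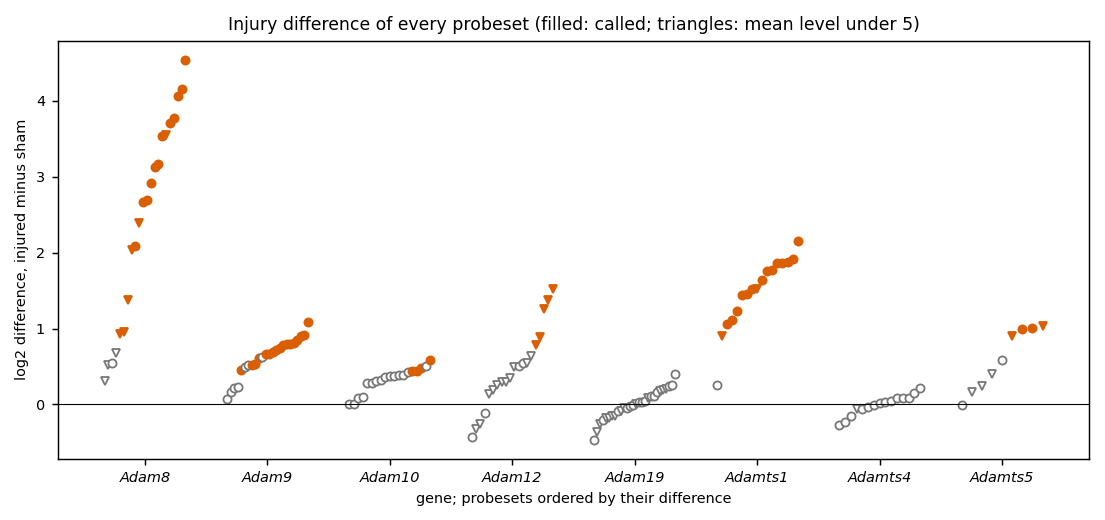
Log2 difference between injured and sham arrays (mean of genotypes, vertical axis) of every probeset of the 8 measured genes, ordered by size within a gene. Filled points were called, and triangles are probesets with a mean level under 5. Adam8 probesets run from 0.31 to 4.54, whereas those of Adamts4 stay between -0.27 and 0.22.

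Unequal change among the probesets of a gene was tested with limma's diffSplice, which called 8.37% of the 15021 genes with at least 2 probesets. Of the 8 genes 4 were called, Adam8 (adjusted p = 1.1e-39), Adam12 (9.49e-08), Adamts1 (0.000412) and Adam9 (0.00208), and with probesets under 5 left out Adam12, with 4 probesets remaining, was no longer called (0.45) and Adamts5 was (0.0205, against 0.0625 with all probesets). The test takes 1 spread for all probesets of a gene. Within Adam8 the probeset changes ran from 0.31 to 4.54, and the 4 uncalled probesets had changes of 0.31 to 0.68. Within Adamts1 a single probeset stood apart, with a change of 0.26 while the other 16 rose by 0.90 to 2.16. This probeset was already at 8.70 in sham cords. Whether such differences come from transcript forms or from how the probes read was not tested.

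None of the other ADAM and ADAMTS genes measured was called higher, and 1 ADAMTS-like gene was. Of all genes, 12.8% were called higher and 17% lower. Of 7 other somatic ADAM genes none rose and 3 fell, namely Adam11, Adam22 and Adam23, by 0.47, 0.44 and 0.39 on the log2 scale (limma adjusted p = 0.000561, 0.000563 and 0.00239). These 3 are brain ADAMs without protease activity, of which ADAM22 and ADAM23 are receptors of LGI proteins at synapses. Neuronal markers fell beside them, 6 of 9, with Syt1, a calcium sensor of synaptic vesicles, lower by 0.69, and the part of neuron number was not tested. Adam15, a widely expressed active ADAM, was higher by 0.24 with a limma adjusted p of 0.0209, under the 1.2-fold limit. Of 17 ADAM genes of testis and epididymis 1 was called, Adam1a, lower by 0.43, and of 10 other ADAMTS genes 1, Adamts16, lower by 0.29. Of 5 ADAMTS-like genes, which lack the protease domain, Adamtsl2, a protein of fibrillin microfibrils, rose by 0.76.

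**Figure D5:**
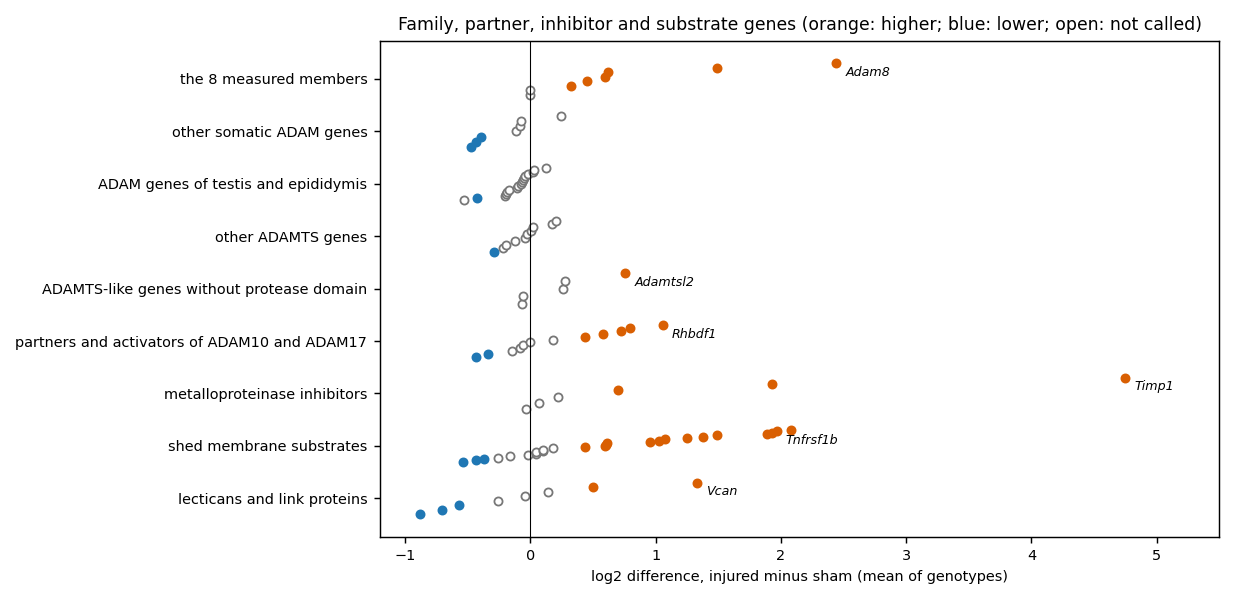
Log2 difference between injured and sham arrays (mean of genotypes, horizontal axis) of the 8 measured genes and of the genes of 8 family and pathway lists, 1 point per gene. Orange points were called higher, blue points lower and open points not called, and the named gene with the largest called rise in a list is labelled. The lists of other ADAM genes and of other ADAMTS genes hold no called rise, while Timp1 reaches 4.75.

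Of 12 measured genes that carry ADAM17 and ADAM10 to the cell surface or activate them, 5 rose and 2 fell. By the same rule 12.8% of all genes were called higher and 17% lower, so the falls were near the share of all genes. Rhbdf1 and Rhbdf2, the iRhom proteins that guide ADAM17 out of the endoplasmic reticulum, rose by 1.05 and 0.80. Furin, which removes the prodomain of ADAM proteases, rose by 0.72 and Tspan14, a tetraspanin partner of ADAM10, by 0.58. Frmd8, which stabilises iRhoms at the surface, rose by 0.43, whereas Tspan33, another tetraspanin partner of ADAM10, fell by 0.44 and Pcsk5, another proprotein convertase, by 0.34. In wild-type cords 4 rose and 1 fell, where 11.2% of all genes were called higher and 12.9% lower. In knockout cords 5 rose and 2 fell, where 8.98% were called higher and 11.5% lower.

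Inhibitors rose as well. Of 6 measured, 3 rose and none fell, against 12.8% of all genes called higher and 17% lower. Timp1, a broad inhibitor of matrix metalloproteinases and of ADAM10, rose by 4.75 ± 0.17 (SE, limma adjusted p = 5.35e-10). A2m, the plasma protease trap alpha-2-macroglobulin, rose by 1.93, and Timp3, the physiological inhibitor of ADAM17, ADAMTS4 and ADAMTS5, by 0.70. Timp2 was 0.22 higher, under the 1.2-fold limit.

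Of 25 measured membrane proteins that ADAM proteases are known to shed, 14 rose and 3 fell, with a median change of 0.60. Over all genes 12.8% were called higher and 17% lower, with a median change of -0.08. The 4 with the smallest p were Csf1r, the receptor of macrophage colony stimulating factor, higher by 1.49, both tumour necrosis factor receptors, Tnfrsf1a by 1.89 and Tnfrsf1b by 1.97, and the chemokine Cxcl16 by 1.93. Csf1r is also in the macrophage list. The 3 that fell were Cx3cl1, a neuronal chemokine, by 0.44, the growth factor Nrg1 by 0.37 and the ephrin Efna5, a ligand of EphA4, by 0.54.

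Among the lecticans, the proteoglycans that ADAMTS proteases cleave, and the link proteins that bind them to hyaluronan, 2 of 8 rose and 3 fell. The shares of all genes called higher and lower were 12.8% and 17%. Vcan, encoding versican, rose by 1.33 and Ncan, encoding neurocan, by 0.50. Bcan, encoding brevican, fell by 0.88, and the link proteins Hapln1 and Hapln4 fell by 0.71 and 0.57. No gene of the partner, inhibitor, substrate or lectican lists was called different between genotypes in sham or injured cords, and none was called for the difference of responses. In sham cords 1 gene of the family lists was called, Adam29, from a list of 17 measured genes. It was lower in knockout cords by 0.40 (limma adjusted p = 0.601). The rule called 1.35% of all genes in sham cords, 0.796% in injured cords and 1.05% for the difference of responses. Calls as few as these are near those shares.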

How the data were processed

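Total RNA of 12 mice, 1 per Affymetrix Mouse Exon 1.0 ST array, was measured in 4 groups of 3. The authors imported the arrays with RMA (background correction, quantile normalization and summary), named in the processing notes with Partek and mm9, and deposited log2 values of 194262 probesets, which make the differences relative. Column medians ran from 5.79 to 5.85. The number of arrays limits the precision. Annotation named 1 gene for 179614 probesets, several for 1331 and none for 13317, and only the first were used.

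Gene means were fitted with limma 3.58.1 in R 4.3.3, with all 12 arrays for injury effects and the 6 sham or 6 injured arrays for genotype, after the methods. Injury calls needed an adjusted p under 0.05 and 1.2-fold, and genotype calls an unadjusted p under 0.01 and 1.2-fold. Probesets were fitted likewise, and exon usage with diffSplice. The fits were tested on simulated data. Members and lists were chosen with earlier results of these data known. Named genes were the members, up to 4 genes per list with the smallest p for injury and the 3 nearest profiles of genes changed at least 2-fold; Frmd8, Tspan33, Pcsk5, Cx3cl1, Nrg1, Efna5, Hapln4, Adam29 and Eif2s3y were named after their values were seen. Of 193 list genes 173 were measured. Alternatives were another summary of probesets, filters, scaling, sex, extraction batch, replicate block, array weights, a variance trend, other fits and tests, and leaving out arrays.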

Additional observations from a re-analysis of the deposited data

Results flagged for a closer look

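Adam19 and Adamts4 are listed here because all 3 injured knockout arrays lay above the mean of the sham knockouts and all 3 injured wild-type arrays lay below the mean of the sham wild-types. For Adam19 the response of knockout cords exceeded that of wild-type cords by 0.18 on the log2 scale (limma adjusted p = 0.915). For Adamts4 it exceeded it by 0.39 (limma adjusted p = 0.873). The opposite directions array by array were not tested as such, and the injury responses of both genes missed the threshold in each genotype. How many of all genes show this pattern was not counted, so it is no result about these 2 genes. Without sham wild-type replicate 2 the wild-type change of Adam19 was 0.0069, no longer below 0.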

How the results depend on the processing

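The count of genes that rose in the mean of genotypes was 6 whichever array was left out, 5 to 6 in wild-type and 3 to 6 in knockout cords. The median of probesets gave 5 in the mean of genotypes and 4 in wild-type cords. Leaving out probesets under 5 gave 5 in both, and centring on the median gave 5 in wild-type cords. In knockout cords array weights gave 6, and leaving out the dimmest genes or a new quantile normalization 4. The sham genotype count of 0 became 1 with probesets under 5 left out (Adamts5), with arrays centred on the median, quantile normalized again or with a variance trend (each Adamts4), and 0 to 1 without 1 array. Without 1 array the injured genotype count and that of the difference of responses were 0 to 1, in both cases Adam8 without injured wild-type replicate 2, at -0.80 and -0.81. Deviations of same-numbered arrays of different groups had a median r of 0.0022 (18 pairs, -0.30 to 0.22). That of other-numbered arrays was 0.0013 (36 pairs, -0.25 to 0.295). With 3 arrays per group this cannot exclude a pairing. The replicate block gave 1 in sham cords, Adamts5 at 0.37, and called Adam12 in knockout cords at 0.43, and it changed no other call of these genes. Leaving out both doubted arrays was chosen after seeing the data.

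Of the values of single genes under these settings, 972 kept their direction and side of the threshold, 12 lost a call, 18 gained one and 54 turned sign. Signs turned only for values that were called under neither setting. For the mean injury effect, Adam19 was 0.074 with the median of probesets, 0.038 without probesets under 5 and 0.025 with array weights, and Adamts4 was 0.0049 quantile normalized again, 0.018 with array weights and 0.035 without both doubted arrays. With the median of probesets, wild-type Adam19 was 0.013 and knockout Adamts5 -0.060, and without probesets under 5 knockout Adam12 was -0.021. For the sham genotype difference, Adam8 was -0.066 without probesets under 5, -0.0084 centred and -0.0085 with batch, and Adam9 was -0.022 centred, -0.025 quantile normalized again and -0.037 without both doubted arrays. For the injured genotype difference, Adam12 was -0.13 with the median of probesets, Adam19 0.020 without probesets under 5 and 0.0091 with array weights, and Adamts5 0.11 with array weights and 0.12 without both doubted arrays. For the difference of responses, Adamts1 was 0.22 with the median of probesets, 0.012 centred, 0.17 with array weights and 0.17 without both doubted arrays, and Adam12 was 0.13 with array weights. The cause was not tested.

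Without 1 array, the mean injury effect ran from -0.057 to 0.045 for Adam19 and -0.038 to 0.040 for Adamts4, and wild-type Adam19 from -0.20 to 0.0069. The sham genotype difference ran from -0.058 to 0.063 for Adam8 and -0.037 to 0.036 for Adam9. The injured one ran from -0.080 to 0.18 for Adam12, -0.030 to 0.13 for Adamts4 and -0.20 to 0.12 for Adamts5. The difference of responses ran from -0.19 to 0.062 for Adam12 and -0.21 to 0.17 for Adamts1.

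Over all genes, the median of probesets gave 2481 calls against 3809 in wild-type and 1970 against 3242 in knockout cords. The sham genotype count of 213 was 138 without probesets under 5, 114 without the dimmest genes and 92 by the methods' one-way analysis of variance, and the injured one of 126 was 202 with batch, 553 with array weights, 209 with all 12 arrays in 1 fit and 83 by that analysis of variance, which left 0 in either after Benjamini-Hochberg. That of the difference of responses, 167 (81 higher, 86 lower), was 287 with batch, 321 with array weights and 152 (95 higher, 57 lower) centred on the median. Arrays left out moved some counts as far, to 2519 in wild-type and 72 in injured cords without injured wild-type replicate 3, and to 340 for the difference of responses without injured knockout replicate 3.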
